A study of Mus musculus with 2 samples.

Results

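Cadherins, protocadherins and the immunoglobulin and neurexin families of neural adhesion molecules were examined in Neuro2a cells, an established mouse neuroblastoma line. Members were all probe sets annotated to exactly 1 gene symbol of the following families: numbered cadherins and protocadherins, clustered protocadherins, alpha and p120-type catenins, the L1 family, NCAM, contactins, Caspr proteins (Cntnap), neurexins, neuroligins, CADM proteins, Alcam and Epcam. The rule used names alone and found 183 probe sets for 86 genes, out of 34945 probe sets for 18193 genes. A further 6 probe sets carried several symbols, at least 1 of them a protocadherin of these families, and were left out. One sample received a non-specific siRNA as control and the other an siRNA against Tmem132a (mKIAA1583), and total RNA of each was hybridised to 1 Affymetrix Mouse Genome 430 2.0 array. These are called the control array and the targeted array. No other treatment, time after transfection or genotype was given for either group. With 1 array per group there was no replicate, so no difference below has a replicate error or a test, and the number of arrays limits the precision.

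Cadherins are calcium-dependent adhesion proteins whose extracellular repeats pair between neighbouring cells and whose tails bind catenins, which link them to actin. Protocadherins lack the classical catenin-binding tail, and the clustered ones are thought to give neurons individual surface identities. L1, NCAM, contactin and CADM proteins carry immunoglobulin domains and act in axon growth, fasciculation and synapse formation, and neurexins and neuroligins pair across the synaptic cleft.

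The labels were checked first. The siRNA target Tmem132a (probe set 1416845_at) gave 1825.5 on the control array and 435.6 on the targeted array, or 23.9% of the former. All 16 neuroblastoma and sympathetic neuroblast markers on the array passed the signal filter, whereas 0 of 8 epithelial, 0 of 7 endothelial and 0 of 7 fibroblast markers did. Hand1, a neuroblast marker, was above the filter level on the targeted array only. Of the glial markers 1 of 7 passed, and of the macrophage and lymphocyte markers 2 of 8. Over all probe sets the median signal was 76.2 on the control array against 81.7 on the targeted one, with a trimmed mean of 497.4 on each. Signals are MAS5 values on a linear scale, and log2 ratios are those of the targeted over the control array.

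Most of these adhesion genes were dim in Neuro2a cells. A probe set was kept when its mean signal over both arrays reached the median of all probe sets (77.2), and 35 of the 183 probe sets did so. They belonged to 21 of the 86 genes (24.4%), compared with 58.7% of all 18193 genes. The genes with a measurable signal were Cdh2, Cdh15, Cdh6, Cdh22, Pcdh1, Pcdhb17, Pcdhb20, Pcdhb21, Ctnna1, Ctnna2, Ctnnd1, L1cam, Nrcam, Ncam1, Cntn3, Nrxn2, Nrxn3, Nlgn2, Cadm1, Cadm4 and Epcam. The clustered protocadherins were the most numerous subfamily, with 23 genes, and 3 of these passed. All of them but Pcdhgc4 were of the beta cluster, so the alpha cluster and the other gamma genes were not examined. The type II cadherins, with 11 genes, had 2 that passed.

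**Figure D1:**
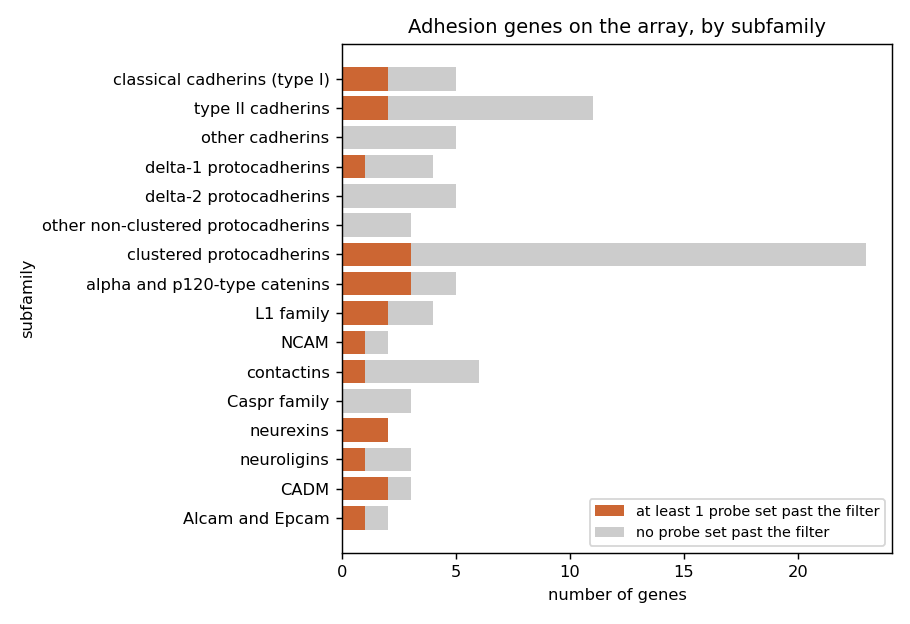
Number of genes on the array in each subfamily, split into genes with at least 1 probe set past the signal filter (orange) and genes with none (grey). Of 86 genes 21 passed, and no gene passed among the other cadherins, the delta-2 and other non-clustered protocadherins and the Caspr family.

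Across the 21 measured genes, signals were mostly lower on the targeted array, by small amounts. In a bulk RNA sample fewer cells of a kind and less RNA per cell cannot be told apart. The log2 ratio, averaged over a gene's probe sets past the filter, was below 0 for 16 of the 21 genes (76.2%), while 48.2% of all 10678 genes past the filter had a ratio below 0. The median of the 21 genes was -0.25, beside 0.02 for all genes. Among the 35 probe sets, 26 had a ratio below 0 (74.3%), compared with 48.2% of 19316 probe sets of all genes. These counts describe 2 arrays and the genes bright enough to be kept. Dropping the filter brought in the 65 dim genes and also 15 dim probe sets of the measured genes. The latter changed values in either direction, such as Cdh6 from -0.30 to 0.53 and Nrxn2 from -0.41 to -0.97. With no filter, 41 of 86 genes (47.7%) lay below 0, beside 42.2% of all 18193 genes. The median was 0, as it was for all genes. In that setting 4 members were at least 2-fold higher, beside 7.20% of all genes, and 6 at least 2-fold lower, beside 4.84%. At 1.5-fold 12 were higher, beside 16.0%, and 13 lower, beside 12.1%.

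Few members reached a large difference. Only Epcam was at least 2-fold higher among the 21 genes, and 2.10% of all genes were. No member was at least 2-fold lower, where 2.44% of all genes were. At 1.5-fold, 3 members were lower (L1cam, Pcdhb21 and Pcdhb20), beside 9.11% of all genes, and 1 was higher (Epcam), beside 8.82%. With 21 genes, these counts were not far from the background shares. The other 17 genes lay within 1.5-fold. Pcdhb21 was above the filter level on the control array only, and Epcam on the targeted array only, so their passing depended on the array where they were higher.

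The markers of the neuroblast identity of this line were also mostly lower. Of the 16, 15 had a log2 ratio below 0, with a median of -0.28. Over all genes past the filter, 48.2% had a ratio below 0 and the median was 0.02. At 1.5-fold 1 marker was lower and 1 higher, beside 9.11% and 8.82% of all genes, and the other 14 lay within 1.5-fold. The marker ratios ran from -0.67 for Ret, a receptor of GDNF-family ligands, to 1.05 for Hand1, which was dim. The Hand1 value rests on 1 probe set, with 56 and 116.1, where only the latter was above the filter level. Its other probe set, below the filter, went the opposite way, from 69.8 to 16.2. The summed signal of the brightest probe set of each marker was 67752 on the control array and 55243 on the targeted array. Sums of the dim lists of other cell types were higher on the targeted array for 4 of 5 lists. The macrophage and lymphocyte list gave 364.8 and 554, and the glial list 285.7 and 411.8. The epithelial list gave 206.1 and 268.7, the endothelial list 202.1 and 218.8 and the fibroblast list 291.2 and 253.8. Dim signals were higher in general: all probe sets below the filter had medians of 19.9 and 24, and 56.1% were higher on the targeted array. The genes of these lists past the filter hardly differed in their brightest probe sets. Csf1r gave 169.8 and 158.5, Laptm5 126.6 and 135.2 and Mbp 116.8 and 123.2. Dimmer Mbp probe sets past the filter were lower, with 102.1 and 69.8 and with 94.8 and 90.2. The part of these shifts in the signals of the adhesion genes was not tested.

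**Figure D2:**
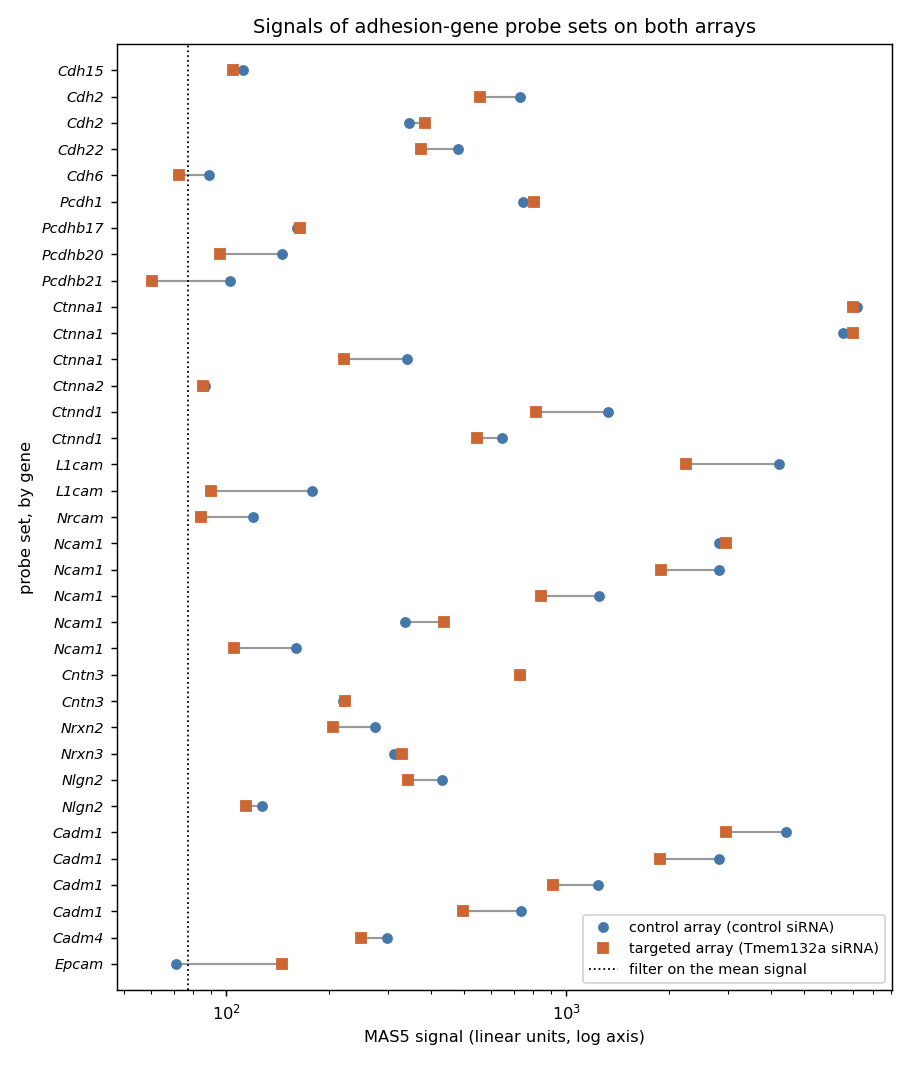
MAS5 signal of each of the 35 probe sets past the filter on the control array (blue circles) and the targeted array (orange squares), on a log axis, ordered by subfamily. The orange square lies to the left of the blue circle for 26 probe sets, and the pairs of L1cam and Cadm1 are all shifted the same way.

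L1cam, the founding member of the L1 family, which promotes neurite outgrowth and binds ankyrin through its tail, had the lowest ratio of the 21 measured genes. Its bright probe set 1450435_at gave 4241.8 on the control array and 2253.1 on the targeted array, a log2 ratio of -0.91. The dimmer probe set 1421958_at gave 179.1 and 89.9, a ratio of -0.99. Both probe sets were thus close to 2-fold lower, and the gene value was -0.95. Of 2116 probe sets with a mean signal within 1.5-fold of that of 1450435_at, 26 (1.23%) had a ratio as low or lower. For 1421958_at, in the noisier dim range, 261 of 5156 (5.06%) did.

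Other members of the L1 family were near or below the filter. Nrcam, an ankyrin-binding adhesion protein of nodes of Ranvier and growth cones, had 1 probe set past the filter, with signals of 119.9 and 84.5 and a ratio of -0.51. Its other 3 probe sets were dimmer and disagreed, with control signals of 44.9, 23.6 and 1.9 against 5.1, 53.8 and 29.7 on the targeted array. With no filter the Nrcam value was 0.02. Nfasc and Chl1 had no probe set past the filter, and their signals lay between 0.9 and 47.6 on the control array and between 2.2 and 62 on the targeted array.

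RefSeq start sites allow the sequence upstream of some of these genes to be set beside the values. A window of 250 bases before the most upstream start in RefSeq (assembly GRCm38.p6) was used for 12 of the 21 measured genes. Cdh2, Pcdh1, Pcdhb17, Pcdhb20, Pcdhb21, Ctnna1, Ncam1, Nrxn2 and Cadm1 were not matched, so counts of motifs cover the other genes alone. The windows of L1cam and Ctnnd1, both lower by all their probe sets past the filter, and of Epcam, the member with the highest ratio, are shown 5′ to 3′ on the strand of the gene. Capitals mark matches, on either strand, to any of 3 motifs. These were the CCAAT box, the GC box that Sp1-type factors bind (GGGCGG) and the E-box known as a site of Snail and ZEB repressors (CACCTG).
L1cam, chrX:73880835-73881084, minus strand: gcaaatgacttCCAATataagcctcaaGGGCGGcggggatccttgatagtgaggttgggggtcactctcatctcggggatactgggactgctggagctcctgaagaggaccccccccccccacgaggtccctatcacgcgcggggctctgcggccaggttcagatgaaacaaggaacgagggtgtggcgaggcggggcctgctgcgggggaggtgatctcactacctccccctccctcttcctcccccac
Ctnnd1, chr2:84658978-84659227, minus strand: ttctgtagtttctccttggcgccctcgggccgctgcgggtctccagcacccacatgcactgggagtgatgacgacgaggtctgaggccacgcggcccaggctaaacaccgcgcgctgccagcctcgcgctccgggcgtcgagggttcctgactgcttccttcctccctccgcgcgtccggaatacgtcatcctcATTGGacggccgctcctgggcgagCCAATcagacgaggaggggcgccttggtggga
Epcam, chr17:87635729-87635978, plus strand: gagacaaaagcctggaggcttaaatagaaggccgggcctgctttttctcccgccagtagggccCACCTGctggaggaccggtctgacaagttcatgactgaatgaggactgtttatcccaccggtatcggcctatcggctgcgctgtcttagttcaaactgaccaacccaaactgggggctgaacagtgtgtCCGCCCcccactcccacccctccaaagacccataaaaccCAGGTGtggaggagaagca
The L1cam window held 1 match to the CCAAT box and 1 to the GC box, both at its far end. The Ctnnd1 window held 2 CCAAT boxes, in opposite orientation and within 56 bases of the start. The Epcam window held 2 matches to the E-box and 1 to the GC box. The E-box occurred in 17.1% of the 27026 windows of all RefSeq entries and in 3 of the 12 member windows, those of Ctnna2, Epcam and Nrcam. The 27026 windows were not limited to genes on the array or past the signal filter, as the 12 were. Shares over all windows and counts among the 12 therefore come from unlike sets of genes. The GC box occurred in 33% of all windows and in 9 of the 12, and the CCAAT box in 34.5% of all windows and in 2 of the 12. The other motifs searched were rarer in the 12 windows. The TATA box (TATAAA), held by 13% of all windows, was in 0 of them. So was the cAMP response element (TGACGTCA), held by 1.6% of all windows, and the AP-1 site (TGANTCA), held by 6.85%. The MYC-type E-box (CACGTG), held by 6.04% of all windows, was in 1, that of Cdh15. The member windows were rich in G and C, with a median of 65% against 52% over all windows. Matches to the motifs did not overlap each other in the 3 printed windows, and they describe the sequence only.

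CADM1, an immunoglobulin adhesion molecule that joins synaptic and epithelial contacts, had 4 bright probe sets that differed in the same direction. They gave 4447.6 and 2954.9, 2818.9 and 1882.6, 1238.3 and 917.3, and 736.1 and 497.1 on the control siRNA and targeted arrays. Their log2 ratios lay between -0.59 and -0.43, and the gene value was -0.54, or 68.6% of the control level. All 4 were lower by similar amounts. In the range of the brightest, 6.18% of 1926 probe sets were as low or lower. Cadm4, a CADM protein of axon and glia contacts, had signals of 296.6 and 249.4, a ratio of -0.25. Cadm3 was below the filter, with signals of at most 61.3 and 15.9.

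Ncam1, the neural cell adhesion molecule, gave a split picture. Of its 5 probe sets past the filter, 3 were lower: 1426864_a_at went from 2810.8 to 1898.2, 1439556_at from 1247.4 to 843.9 and 1425126_at from 160.8 to 105. Their ratios were -0.57, -0.56 and -0.62. The other 2 were not lower, with 2824.2 and 2946.8 for 1426865_a_at and 335.5 and 437.3 for 1450437_a_at, ratios of 0.06 and 0.38. The gene value of -0.26 therefore averages probe sets that differed in sign. It was 0.06 by the brightest probe set alone and -0.59 without probe sets of the a suffix, which can detect several transcripts of 1 gene. Ncam2 was below the filter.

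The catenins that anchor cadherins differed among themselves. Ctnnd1, p120-catenin, which binds the juxtamembrane tail and slows cadherin endocytosis, was lower by both probe sets past the filter. The probe set 1437448_s_at went from 1327.9 to 813, a ratio of -0.71, and 1422450_at from 649.5 to 545.3, a ratio of -0.25, with a gene value of -0.48. The former carries the s suffix, which can share sequence with other genes. The remaining Ctnnd1 probe set, 1445830_at, was below the filter and not lower, with 59.6 and 64.8. With no filter the Ctnnd1 value was -0.28. For Ctnna1, alpha-catenin, the 2 bright probe sets hardly differed, with 6520.8 and 6987.1 in 1 and 7180.7 and 6979.3 in the other. Another, dimmer probe set gave 339.2 and 222.4, a ratio of -0.61, and alone put the gene value at -0.18. With the filter at the 75th percentile of signal, where that probe set dropped out, the value was 0.03. Ctnna2, the neuronal alpha-catenin, had signals of 86.6 and 85.5, and Ctnna3 and Ctnnd2 were below the filter.

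**Figure D3:**
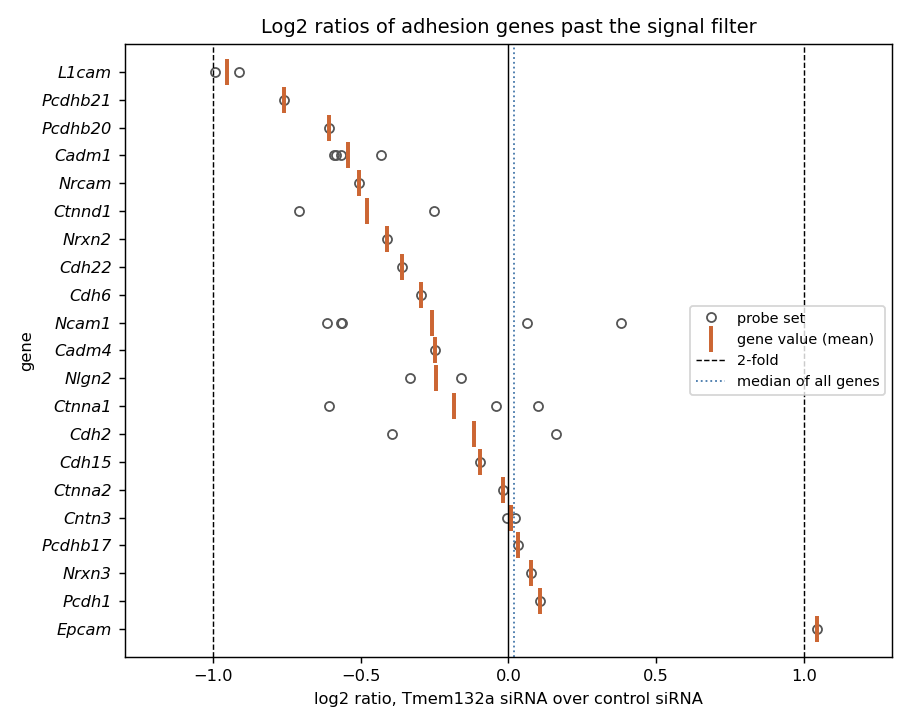
Log2 ratio (Tmem132a siRNA over control siRNA) of each of the 21 genes past the filter, with open circles for single probe sets and orange bars for the gene mean; dashed lines mark 2-fold. Values run from -0.95 for L1cam to 1.04 for Epcam, and the probe sets of Ncam1, Ctnna1 and Cdh2 lie on both sides of 0.

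Among the classical cadherins, Cdh2 (N-cadherin), the main cadherin of neural cells, was measured by probe sets that disagreed in sign. The brighter, 1418815_at, gave 733.1 and 558.4, a ratio of -0.39, and 1449244_at gave 344.8 and 385.2, a ratio of 0.16. The gene value was -0.12. Cdh15 (M-cadherin), known from muscle, had signals of 111.9 and 104.7, a ratio of -0.10. Cdh1 (E-cadherin), which marks epithelium, was near the bottom of the range, with 3.6 and 24.3, and Cdh3 and Cdh4 were below the filter with signals of at most 81.4 and 58.

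Type II cadherins sort neurons and nuclei during development, and their 2 measured members were both slightly lower. Cdh22 gave 479.2 and 373.3, a ratio of -0.36. Cdh6 gave 88.9 and 72.4, a ratio of -0.30, where only the control signal was above the filter level. With no filter the second, dim probe set of Cdh6 (5.6 and 36.9) turned the value to 0.53. Cdh5 (VE-cadherin), which marks endothelium, had signals of 22.5 and 47 in 1 probe set and 9.5 and 28.3 in the other, both below the filter. The 9 type II genes below the filter had median signals of 18.9 on the control array and 24.9 on the targeted array.

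Protocadherins were represented by 4 measured genes. Pcdh1, a delta-1 protocadherin, gave 747.2 and 804.9, a ratio of 0.11. In the beta cluster, whose genes lie side by side and are switched on in different combinations in single neurons, Pcdhb17 gave 161 and 164.5, a ratio of 0.03. Pcdhb20 gave 146 and 95.8, a ratio of -0.61, and Pcdhb21 gave 102.5 and 60.5, a ratio of -0.76. The last was only just past the filter, with a mean signal of 81.5, and only its control signal was above the filter level. Its second probe set, below the filter, had 55.9 and 27. In these dim ranges ratios of this size were common: 15.2% of 5338 probe sets of like signal were as low as Pcdhb20, and 12.9% of 6265 as low as Pcdhb21. With a pseudocount in place of the floor, their ratios were -0.36 and -0.38.

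Among synaptic partners, Nlgn2, the neuroligin of inhibitory synapses, was lower by both probe sets, with 430.6 and 342 and with 127.6 and 114.1. Its ratios were -0.33 and -0.16. Nrxn2 gave 273.1 and 205.6, a ratio of -0.41, and a second, dim probe set gave 62.8 and 21.7, which put the value at -0.97 with no filter. Nrxn3 gave 311.2 and 328.1, a ratio of 0.08. The presynaptic neurexins thus lay on both sides of 0. Nlgn1 and Nlgn3 were below the filter. Cntn3, a GPI-anchored contactin, had the value closest to 0, 0.01, with 731.3 and 729.2 and with 220.1 and 223.4.

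Epcam, an epithelial adhesion molecule, was the only member at least 2-fold higher. The value rests on 1447899_x_at, with 70.9 on the control array and 146.1 on the targeted array, a ratio of 1.04. Only the signal of the targeted array was above the filter level. Of 5521 probe sets of like signal, 6.54% were as high or higher. The other Epcam probe set, 1416579_a_at, was dimmer and went the opposite way, from 25.2 to 5.5. With no filter, which averages both, the value was 0.12. Of the 8 epithelial markers, whose summed signals are given above, 0 passed the filter, and Esrp1 and Krt19 were under the floor on both arrays.

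**Figure D4:**
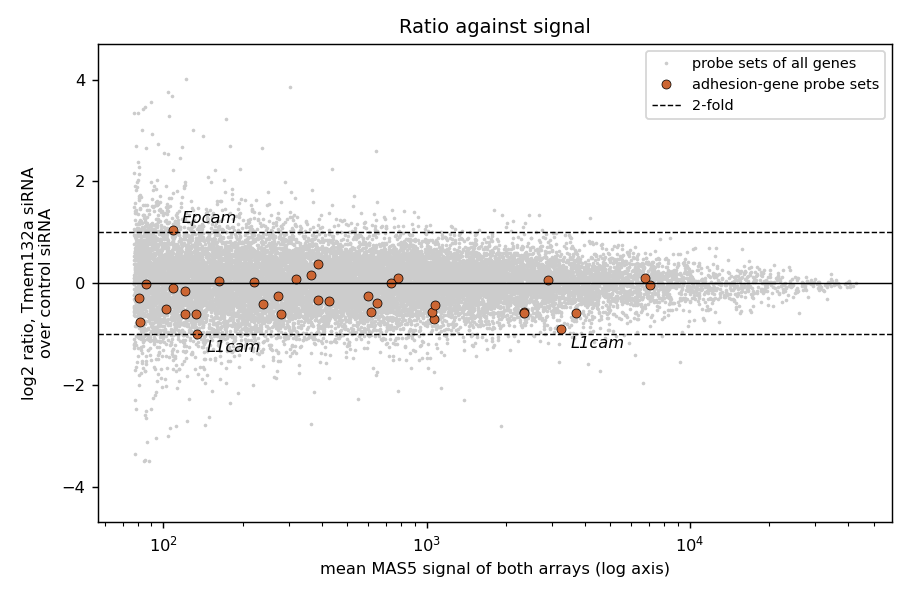
Log2 ratio against the mean signal of both arrays (log axis) for 19316 probe sets of all genes (grey) and the 35 adhesion-gene probe sets (orange); dashed lines mark 2-fold. The grey cloud narrows with signal, and the bright L1cam probe set lies at its lower edge at a ratio of -0.91, while Epcam lies among dim, scattered probe sets.

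The spread of ratios sets how these values can be read. Over all genes with a symbol, the SD of probe-set ratios was 0.72 for mean signals between 77.2 and 150 and 0.34 above 2000. The members had 10 probe sets in the former range and 7 in the latter. Probe sets of 1 gene, which share the RNA but not the probes, had an SD of 0.39 around the mean of their gene over 5072 genes. For the 8 members with several probe sets it was 0.32. Of these 8 genes, 4 had all their probe sets past the filter on 1 side of 0. All 4 were lower, namely L1cam, Cadm1, Ctnnd1 and Nlgn2. The share of the 5072 genes with such agreement was not counted, so the 4 of 8 has no background to be read against.

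The 65 genes with no probe set past the filter had 133 probe sets, with a median signal of 19.4 on the control array and 23.3 on the targeted array. Of these probe sets 31 were under the floor of 14.5 on both arrays and 45 on 1 array. The highest signals were 94.3, for Pcdhb3 on the control array (33.2 on the other), and 102, for a probe set of Cntn2 on the targeted array (6.7 on the other). Among them were all delta-2 protocadherins (Pcdh8, Pcdh10, Pcdh17, Pcdh18 and Pcdh19), which regulate neural cell sorting, and all Caspr genes, which encode neurexin-like membrane proteins of neurons. Alcam, an immunoglobulin adhesion molecule of axons and leukocytes, had 5 probe sets with signals of at most 17.5 and 18. Of the 133 probe sets 69 (51.9%) were higher on the targeted array, where 56.1% of all probe sets below the filter were. These low signals do not show that the genes were silent.

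Partners and regulators of the adhesion genes were taken from a list of roles. Of 100 listed genes on the array, 62 passed the filter, with a median log2 ratio of -0.07. At 1.5-fold 12 were lower and 2 higher, and at 2-fold 1 was lower and 1 higher. Over all genes past the filter, 9.11% were lower and 8.82% higher at 1.5-fold, and 2.44% lower and 2.10% higher at 2-fold.

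Large cadherins outside the numbered families held the lowest value of the partner list. Fat1, a giant cadherin that organises actin at cell contacts, went from 1516.9 to 715.7, a ratio of -1.08. Dchs1, the partner of Fat4 in planar cell polarity, gave 287.6 and 156.9, a ratio of -0.87. Celsr2, a flamingo-type cadherin, had a ratio of -0.87 over 2 probe sets with control signals of 154.7 and 133.7. Fat1 and Dchs1 each rest on 1 probe set past the filter. Of 7 measured genes in this role, 3 were at least 1.5-fold lower and 0 higher, beside 9.11% and 8.82% of all genes.

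Linkers inside the cell were mostly within 1.5-fold. Ctnnb1, beta-catenin, was lower by all 3 probe sets, and the brightest gave 13995.9 and 12128.2, with a gene value of -0.36. Lima1, an actin-bundling protein that binds alpha-catenin, lay at -0.69, with 4 probe sets between -0.95 and -0.41. It was the 1 gene of 12 in this role past 1.5-fold. Of 12 ankyrins, spectrins and related linkers, 2 were at least 1.5-fold lower, beside 9.11% of all genes. Epb41l5, a protein 4.1 relative of epithelial polarity, lay at -0.95 (3 probe sets) and Epb41l3 at -0.59. Epb41l3 was only just past 1.5-fold, with 3 probe sets between -0.82 and -0.18. It was within 1.5-fold with the 75th percentile filter (-0.50) and with the pseudocount (-0.44), and at -0.82 by the brightest probe set.

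In the other immunoglobulin adhesion molecules, 3 of 10 were at least 1.5-fold lower, beside 9.11% of all genes. These were Bsg (basigin), from 6048.1 to 3748.9 at -0.69, Igsf8 at -0.68 and Igsf3 at -0.66. Bsg and Igsf8 each rest on 1 probe set past the filter. Of 8 neurexin and neuroligin partners, Dlg4, the scaffold PSD-95, was past 1.5-fold, at -0.61 with signals of 150.3 and 98.3. With no filter dim probe sets turned Dlg4 to 0.31 and brought Igsf3 to -0.21. Pvr, the poliovirus receptor of the nectin family, was higher by all 5 probe sets, which ran from 0.53 to 0.75, with a gene value of 0.65. It stood apart from the nectins Nectin1, Nectin2 and Nectin3, which lay between -0.28 and 0.03. The polysialyltransferases St8sia2 and St8sia4, which modify NCAM, were below the filter with signals of at most 56.6 and 8.9.

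Among proteases and repressors, Psen2, a catalytic subunit of gamma-secretase, was the highest partner, with 95.6 and 298.7 in 1 dim probe set and a ratio of 1.64. Adam10, which sheds N-cadherin and L1, was alike on both arrays, with 2737.2 and 2545.2 in its brightest probe set and a gene value of -0.01. Zeb1, a repressor of epithelial cadherin and Epcam genes, had a ratio of -0.75, but its bright probe set (1192.8 and 560.8) gave -1.09 and its dim one (94.9 and 71.6) -0.41. Snai2, a related repressor, gave 196.7 and 123.2, a ratio of -0.68. With no filter Zeb1 was at -0.47 and Snai2 at -0.40, both within 1.5-fold. Rest, the repressor of neuronal genes such as L1cam, was split, with 335.2 and 386.9 in 1 probe set and 305.8 and 136.3 in the other.

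Other settings moved some members more than others, among bright and dim genes alike. L1cam was between -0.97 and -0.75 in all 10 alternative settings and Cadm1 between -0.59 and -0.51. Ncam1, also bright, ran from -0.59 to 0.06 and Ctnnd1 from -0.71 to -0.25, whereas the dim Pcdhb17 stayed between 0.02 and 0.05. Epcam was under 2-fold in 4 of the 8 settings that gave it a value, at 0.99 under quantile normalization and under loess and at 0.59 with the pseudocount. Without rescaling and under the 3 other scalings tried, 16 of the 21 genes had a ratio below 0, and the median of the members lay between -0.26 and -0.24.

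**Figure D5:**
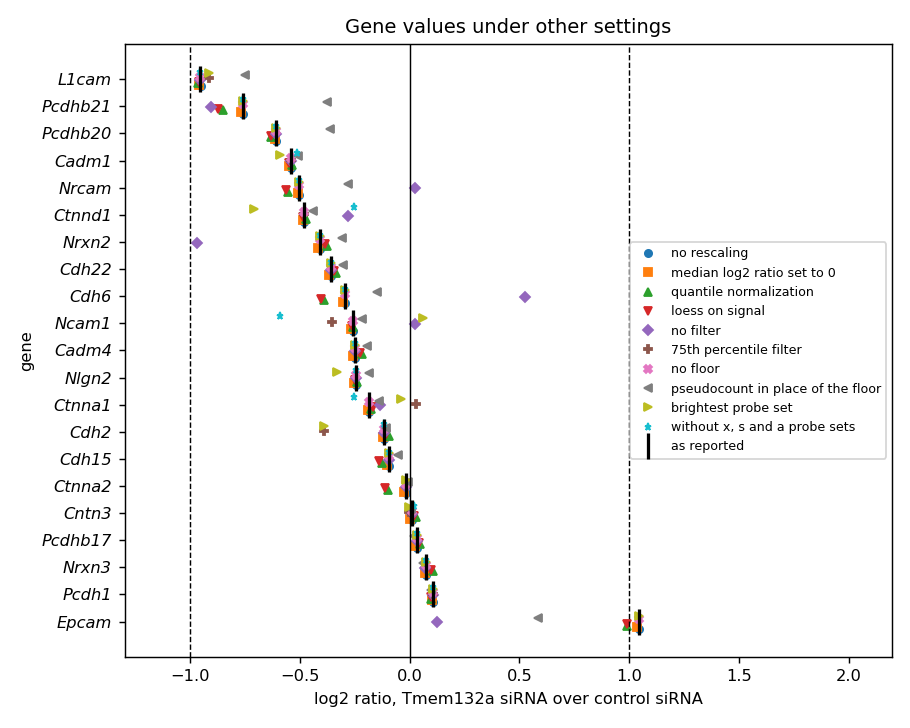
Log2 ratio of each measured gene as reported (black bars) and under each of 10 alternative settings (coloured symbols); dashed lines mark 2-fold. Symbols of L1cam and Cadm1 stay close together, while those of Epcam, Cdh6, Nrcam and Nrxn2 move when dim probe sets are included.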

How the data were processed

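Signal intensity per probe set was deposited by the authors on a linear scale. MAS5 made it, per the submitters' processing notes and the series text. Its version, and how the arrays were scaled, are not given in the sources used here. Detection calls were not used here. Scripts ran in Python 3.11.15 (numpy 2.4.6, statsmodels 0.14.6, pandas 2.3.3, matplotlib 3.10.9). The table held 45101 probe sets, and its 64 Affymetrix controls were not used. Genes were named from the platform annotation: 34945 probe sets had 1 symbol, 932 several and 9160 none. Both arrays were set to the same mean after trimming 2% at each end. Probe sets with a mean signal of at least 77.2, the median, were kept (22519). Signals under the 20th percentile (14.5) were set to it. A gene value is the mean log2 ratio over its kept probe sets. Groups came from the sample titles, although the targeted sample's free-text description is the same as the control's. No test was made, since each group had 1 array, and differences are described at 1.5-fold and 2-fold. The procedure was tested on simulated data in which all planted differences were rises of 2-fold or more. Lower values and smaller differences were not planted, so the test does not cover them. Every measured member is named, and of the partner list those past 1.5-fold and a few fixed genes; those given as contrast (Nectin1, Nectin2 and Nectin3) were added after their values were seen. Members and lists were chosen with earlier results of these data known. Scaling alternatives were the signals as deposited, quantile normalization, a loess of span 0.3 and centring on the median ratio. Signal alternatives were dropping the filter, raising it to the 75th percentile (462.8), dropping the floor and replacing it by a pseudocount of 79.2. Probe-set alternatives were taking the brightest per gene and leaving out suffixes with a, s or x. Promoter windows and their coordinates are from RefSeq, assembly GRCm38.p6, and the motifs were searched on both strands.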

Additional observations from a re-analysis of the deposited data

How the results depend on the processing

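The median of the members lay between -0.37 and -0.19 in 9 of 10 alternatives. It was 0 with no filter, where dim genes at the floor and dim probe sets of the measured genes enter. The count of members at least 2-fold higher, 1 as reported, was 0 under quantile normalization, loess, the 75th percentile filter, the pseudocount and without a, s and x suffixes, and 4 with no filter (7.20% of all genes). With no filter 6 members were 2-fold lower (4.84% of all genes), and at 1.5-fold 12 were higher (16.0%) and 13 lower (12.1%). At 1.5-fold higher, 0 members were counted with the 75th percentile filter and without a, s and x suffixes. At 1.5-fold lower, the count of 3 became 1 with the 75th percentile filter and with the pseudocount, and 5 by the brightest probe set. For the partner list, 2-fold higher counts were 5 with no filter and 0 with the 75th percentile filter and without a, s and x suffixes. Those 2-fold lower were 3 with no filter and with the 75th percentile filter, and 4 by the brightest probe set. Those 1.5-fold higher were 10 with no filter and 1 with the 75th percentile filter, the pseudocount or without a, s and x suffixes. Those 1.5-fold lower were 7 with the 75th percentile filter and with the pseudocount. Fewer genes are tested under the stricter filter, and the cause of the other changes was not tested. No paired analysis was possible because each group has 1 array.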
